A study of Mus musculus with 12 samples.

Results

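Livers that lacked both MCL1 in hepatocytes and STING1 were compared with wild-type livers, to see which transcripts differed from normal when the DNA-sensing adaptor was absent. The comparison took 6 of the 12 liver libraries of the series by their genotype label, 3 labelled Mcl1 Sting1 DKO and 3 labelled WT. The double knockout mice, called Mcl1Δhep Sting1-/- here, carried a Cre transgene under the albumin promoter, which is active in hepatocytes, together with a floxed Mcl1 gene, on a background of whole-body Sting1 loss. The WT mice carried neither loss. The other 6 libraries, 3 each from Mcl1Δhep and Sting1-/- livers, took part in the estimate of the spread and are given beside some of the results. The labels give neither age nor sex. By the methods, mice of both sexes were used at 2 or 12 months of age, and transcriptomes are described for livers at 2 months. Total RNA of whole liver was sequenced, so a change in the number of cells of a type and a change in RNA per cell cannot be told apart.

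MCL1 is a survival protein of the BCL2 family that holds the pore-forming proteins BAX and BAK in check. Hepatocytes without it die by apoptosis at a raised rate, neighbouring hepatocytes enter the cell cycle to replace them, and the chronic turnover can end in tumors. STING1 carries the signal of the cytosolic DNA sensor cGAS to interferon and inflammatory genes, and in liver it is found mostly in macrophages and other non-parenchymal cells.

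The targeted genes were examined first, as CPM, read counts scaled by library size, in each of the 3 livers per group. Mcl1 was at 90.2, 102 and 104 CPM in WT replicates 1 to 3 and at 18.1, 22.9 and 26 CPM in Mcl1Δhep Sting1-/- replicates 1 to 3 (log2 fold change −2.14, SE 0.17, adjusted p = 0.00036) in the quasi-likelihood test of edgeR. Every double knockout liver lay below every WT liver, and the call was kept when any 1 of the 6 livers was left out. Sting1 was at 2.53, 2.43 and 2.11 CPM in WT replicates 1 to 3 and at 1.9, 2.53 and 2.33 CPM in Mcl1Δhep Sting1-/- replicates 1 to 3 (log2 fold change −0.06, SE 0.29, adjusted p = 0.96). The groups overlapped, and the Sting1-/- livers held 1.86 ± 0.779 CPM (SD, n = 3). Mcl1Δhep livers held 4.75 ± 1.17 CPM, each above every double knockout liver. That difference did not pass the test (log2 fold change −1.05 for double knockout over Mcl1Δhep, SE 0.29, adjusted p = 0.134). The summed count of the gene thus does not show the deletion against WT, and genotypes are given here as the libraries are labelled. Cgas, the sensor upstream of STING1, was at 0.208 to 0.561 CPM in WT and 0.401 to 0.848 CPM in double knockout livers, and the difference did not pass the test (log2 fold change 0.90, SE 0.40, adjusted p = 0.337).

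All 6 libraries had the profile of liver. Albumin (Alb) stood between 59841 and 117090.0 CPM, and Serpina1c, the lowest of the hepatocyte markers Ttr, Apoa1, Cps1 and Serpina1c, was at 1598 CPM or more. Total counts ran from 28826367 to 38735263 in the double knockout and from 32210041 to 39340988 in the WT libraries. The WT livers were not alike: Y-linked genes (Ddx3y, Eif2s3y, Kdm5d and Uty) summed to 147 CPM in WT replicate 2, 142 CPM in WT replicate 3 and 147 CPM in double knockout replicate 1, and to 0 CPM in WT replicate 1 and double knockout replicates 2 and 3. Small structured RNAs took 0.431 to 0.532% of counts in double knockout and 0.172 to 0.369% in WT libraries. The acute-phase genes Saa1 and Saa2 were at 1474 and 1108 CPM in WT replicate 2, against at most 59.4 and 22.6 CPM in the other 5 livers, and their part in the calls was not tested.

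Across 15070 tested genes, 275 differed between Mcl1Δhep Sting1-/- and WT livers with an adjusted p below 0.05, which is 1.82% of the genes tested. Of these, 229 rose (1.52%) and 46 fell (0.305%), so that rises made up most of the calls while the median log2 fold change of all tested genes was −0.01. The rises were also the larger: their median log2 fold change was 2.37 (0.58 to 5.03), against −1.25 (−0.61 to −5.89) for the falls. Genes of cell division led the rises, with 57 of the 229 in the lists for mitosis, DNA replication, replication-dependent histones and G1 regulators, which held 128 tested genes in all. Counting all lists, 77 rises were in one and 152 in none. Mitotic genes such as Ttk and Kif2c were in none, so the 57 are not a full count of cell division genes. All 275 called genes had groups that did not overlap, as did 22.8% of all tested genes (11.5% higher and 11.3% lower in the double knockout).

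The number of calls depended on single livers and on the other genotypes in the fit. Leaving out WT replicate 2, WT replicate 3, double knockout replicate 1 or double knockout replicate 2 left 31, 84, 108 and 111 genes, whereas 230 and 332 genes were called without WT replicate 1 and without double knockout replicate 3. A fit of the 6 libraries alone called 13 genes, 10 higher and 3 lower. Of the 275 genes, 28 were called whichever of the 6 livers was left out, 23 of them higher and 5 lower. Of 54 called genes named by rule, 47 lost their call without WT replicate 2, 37 without WT replicate 3, 29, 27 and 8 without double knockout replicates 1, 2 and 3, and 19 without WT replicate 1. With Y-linked expression as a covariate 10 of the 54 lost their call. A named call was lost without at least 1 of these 6 livers, except where it is said to have been kept.

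Mitosis genes held the largest share of calls of any list. All 26 members of a list of G2 and mitosis genes rose, with a median log2 fold change of 3.36 and a range from 1.75 to 5.03, where 1.52% of all genes rose. Their summed level was 31.9, 25.6 and 27 CPM in the WT livers, and in double knockout replicates 1 to 3 it was 511, 246 and 116 CPM. The double knockout livers therefore differed widely among themselves while the WT livers were close together, and all 26 genes were highest in replicate 1 and lowest in replicate 3. The count stayed at 26 with Y-linked expression as a covariate, fell to 25 with the small structured RNA share as a covariate, and was 0 in the fit of 6 libraries alone. Without WT replicate 2 it was 3, without WT replicate 3 it was 7, and without double knockout replicate 1, double knockout replicate 2 or WT replicate 1 it was 17, 18 and 19.

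Several members regulate the passage from G2 to anaphase. Cdc20 was at 1.16, 0.504 and 0.429 CPM in WT replicates 1 to 3 and at 51.8, 17.6 and 5.66 CPM in Mcl1Δhep Sting1-/- replicates 1 to 3 (log2 fold change 5.03, SE 0.78, adjusted p = 0.0103), and its product activates the anaphase-promoting complex. Ccnb2 was at 0.501, 0.534 and 0.627 CPM in WT replicates 1 to 3 and at 19.9, 10.1 and 3.31 CPM in Mcl1Δhep Sting1-/- replicates 1 to 3 (log2 fold change 4.20, SE 0.61, adjusted p = 0.0085). Cyclin B2 binds CDK1, and both transcripts were higher in the lowest double knockout liver than in any WT liver. Cdk1 was at 1.24, 1.16 and 1.68 CPM in WT replicates 1 to 3 and at 16, 11.6 and 5.88 CPM in Mcl1Δhep Sting1-/- replicates 1 to 3 (log2 fold change 2.99, SE 0.35, adjusted p = 0.00587). Ube2c was at 0.264, 0.326 and 0.396 CPM in WT replicates 1 to 3 and at 8.45, 4.41 and 2.24 CPM in Mcl1Δhep Sting1-/- replicates 1 to 3 (log2 fold change 3.73, SE 0.48, adjusted p = 0.00642), and it encodes the ubiquitin-conjugating enzyme that works with the same complex as CDC20. Cdk1 and Ube2c, singled out after their values were seen, kept their calls whichever of the 6 livers was left out.

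The promoters of these 4 genes are shown because they hold letters known as elements that time transcription to G2 and mitosis. Each line runs 5′ to 3′ on the strand of the gene, from 150 bases before the annotated start to 30 bases after it (RefSeq, GRCm38.p6). Capitals mark TTTGAA, the core of the cell cycle homology region (CHR), and CCAAT, each on either strand, so that TTCAAA and ATTGG are the same motifs read on the opposite strand. Each motif was searched on its own. The windows lie at chr4:118437314-118437493 (- strand), chr9:70421525-70421704 (- strand), chr10:69352883-69353062 (- strand) and chr2:164769779-164769958 (+ strand).
Cdc20: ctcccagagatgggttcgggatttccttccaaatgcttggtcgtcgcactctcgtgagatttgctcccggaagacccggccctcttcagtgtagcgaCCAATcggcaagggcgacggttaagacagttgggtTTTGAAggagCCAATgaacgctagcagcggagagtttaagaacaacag
Ccnb2: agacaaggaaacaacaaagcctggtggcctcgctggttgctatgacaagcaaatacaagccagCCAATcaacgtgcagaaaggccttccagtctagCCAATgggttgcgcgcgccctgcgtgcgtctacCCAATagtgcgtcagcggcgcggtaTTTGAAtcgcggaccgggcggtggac
Cdk1: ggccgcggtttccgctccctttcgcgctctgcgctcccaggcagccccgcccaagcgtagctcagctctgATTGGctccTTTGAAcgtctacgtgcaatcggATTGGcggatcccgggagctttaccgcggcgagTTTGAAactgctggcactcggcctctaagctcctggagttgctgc
Ube2c: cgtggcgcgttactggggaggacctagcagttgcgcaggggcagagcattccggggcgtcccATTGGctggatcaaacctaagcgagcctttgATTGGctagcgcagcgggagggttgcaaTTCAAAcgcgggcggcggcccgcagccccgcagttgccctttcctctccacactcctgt

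In the longer window of 250 bases before to 50 after the start, TTTGAA was present in 17 of the 22 mitosis genes with a promoter in the tables used (77.3%), in 20.2% of 27025 gene promoters and in 15.1% of the tested genes with a promoter. CCAAT was present in 19 of the 22 (86.4%) and in 41.1% of all gene promoters, and both motifs together in 16 of the 22 (72.7%) and in 7.97%. Among 137 called rises outside the proliferation lists, 51 (37.2%) held TTTGAA, and among 32 called falls 6 (18.8%) did. Rises outside these lists include mitotic genes such as Ttk and Kif2c, so they are not a set without proliferation genes. These are matches of letters, and no binding was measured. Promoters on chromosome 18 were not used here.

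Other mitotic genes had the same order of livers. Mki67 was at 3.93, 3.32 and 4.39 CPM in WT replicates 1 to 3 and at 68, 33.9 and 18.9 CPM in Mcl1Δhep Sting1-/- replicates 1 to 3 (log2 fold change 3.36, SE 0.66, adjusted p = 0.025), and it encodes the proliferation antigen Ki-67. Top2a was at 3.96, 3.97 and 3.0 CPM in WT replicates 1 to 3 and at 32.4, 26.1 and 12.2 CPM in Mcl1Δhep Sting1-/- replicates 1 to 3 (log2 fold change 2.67, SE 0.43, adjusted p = 0.0117), and it encodes the topoisomerase that untangles sister chromatids. Neither gene overlapped between the groups. The kinesin genes Kif20a and Kif2c rose by 4.04 and 4.0 on the log2 scale (adjusted p = 0.018 and 0.0146). Ttk, a kinase of the spindle checkpoint, rose by 4.09 (adjusted p = 0.0109), and Ccnb1, Hmmr and Ckap2 by 4.10, 4.51 and 4.70 (adjusted p = 0.012, 0.0214 and 0.0126). Foxm1 and Mad2l1 were chosen after their values were seen. Foxm1, a transcription factor of G2 genes, was at 0.267 to 0.561 CPM in WT and 2.13 to 5.04 CPM in double knockout livers (log2 fold change 2.90, adjusted p = 0.0109). Mad2l1, of the spindle checkpoint, was at 1.85 to 2.82 and 7.14 to 13.2 CPM (log2 fold change 2.17, adjusted p = 0.00587), and its call was kept without any 1 of the 6 livers.

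**Figure D1:**
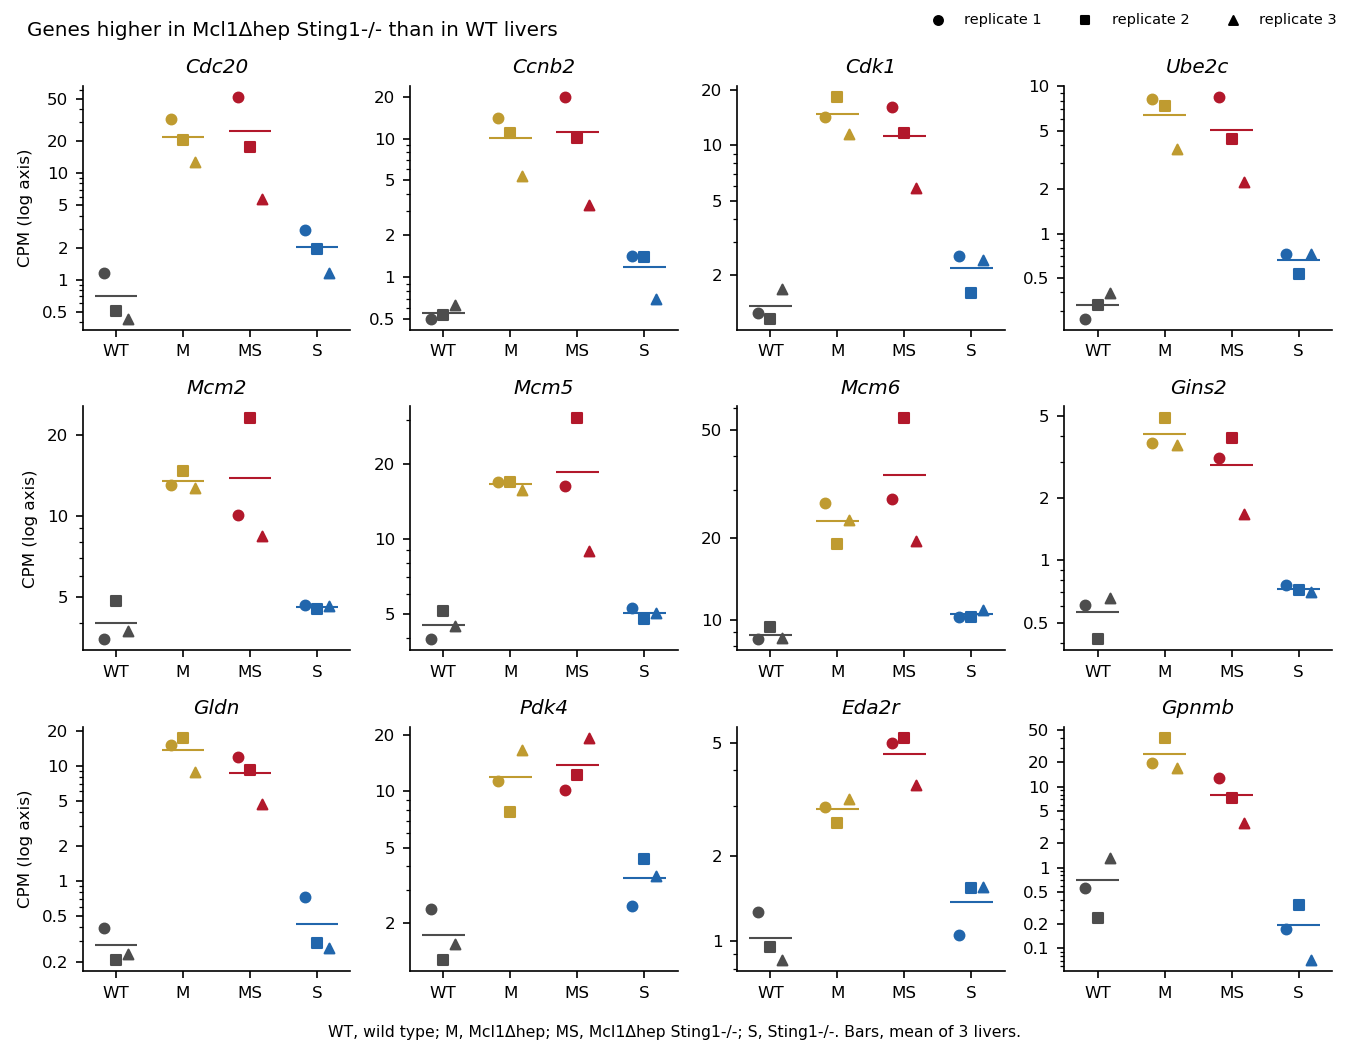
Each panel plots the CPM of 1 gene on a log axis in the 3 livers of WT, Mcl1Δhep (M), Mcl1Δhep Sting1-/- (MS) and Sting1-/- (S) mice, with replicates as circles, squares and triangles and the mean as a bar. In all 12 genes the 3 Mcl1Δhep Sting1-/- livers lie above the 3 WT livers, and Cdc20 spans 5.66 to 51.8 CPM in the former.

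Genes of DNA replication rose less and in another order. Of 26 members, 12 rose and none fell, with a list median of 1.37 beside −0.01 for all genes, and 21 had double knockout livers entirely above WT, where 1.52% of all genes rose and 11.5% lay entirely above. Their summed level was 186, 188 and 194 CPM in WT and 333, 502 and 256 CPM in double knockout replicates 1 to 3. In contrast to the mitosis genes, 24 of the 26 were highest in replicate 2, and 24 were lowest in replicate 3. Mcm6 was at 8.47, 9.43 and 8.55 CPM in WT replicates 1 to 3 and at 27.7, 55.3 and 19.5 CPM in Mcl1Δhep Sting1-/- replicates 1 to 3 (log2 fold change 1.95, SE 0.30, adjusted p = 0.0103). Mcm5 was at 3.96, 5.16 and 4.49 CPM in WT replicates 1 to 3 and at 16.3, 30.6 and 8.95 CPM in Mcl1Δhep Sting1-/- replicates 1 to 3 (log2 fold change 2.02, SE 0.33, adjusted p = 0.0126). Both encode subunits of the MCM helicase that unwinds replication origins, and neither gene overlapped between the groups. Mcm2 and Mcm3 rose by 1.78 and 1.39 on the log2 scale (adjusted p = 0.0168 and 0.0383), and Rrm1, a subunit of ribonucleotide reductase, by 0.97 (adjusted p = 0.025). With Y-linked expression as a covariate Mcm3 lost its call (adjusted p = 0.0938) and the list had 10 rises. Gins2 and Cdc45, partners of the MCM ring that were picked after their values were seen, rose by 2.26 and 2.02 (adjusted p = 0.00713 and 0.00713) and kept their calls without any 1 of the 6 livers. The count of rises was 2 without WT replicate 2 or WT replicate 3, 7 without WT replicate 1 or double knockout replicate 2, 8 without double knockout replicate 1 and 19 without double knockout replicate 3.

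The same letters were counted in the promoters of the replication genes. CCAAT was found in 14 of 21 (66.7%), above the share of all promoters as in the mitosis genes, and TTTGAA in 3 of the 21 (14.3%). TTTGGCGC, an E2F site, was found on either strand in 5 of 21 replication promoters (23.8%) and in 0 of 22 mitosis promoters. Its share was 0.585% of all gene promoters and 1.11% of the tested genes with a promoter. TTTCGCGC, a second form of the site, was found in 6 of the 21 (28.6%) and in 1 of the 22. The share of this form was 0.374% of all gene promoters and 0.761% of the tested genes.

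Histone genes, whose products package newly made DNA, rose in part. Of 58 tested members of the replication-dependent clusters, 17 rose and none fell, with a list median of 0.92, and 32 had double knockout livers entirely above WT, beside 1.52% and 11.5% of all genes. Their summed level was 383, 434 and 382 CPM in WT and 493, 504 and 375 CPM in double knockout livers, which overlap. The abundant linker histone H1f2 was at 36.5, 60.5 and 35 CPM in WT and 57.9, 45.2 and 31.1 CPM in double knockout livers (log2 fold change 0.02, SE 0.29, adjusted p = 0.988). H2bc3 was at 3.75, 3.38 and 3.27 CPM in WT replicates 1 to 3 and at 9.29, 9.82 and 8.46 CPM in Mcl1Δhep Sting1-/- replicates 1 to 3 (log2 fold change 1.39, SE 0.21, adjusted p = 0.00931). H2bc3 did not overlap between the groups, whereas H1f2 did. H1f1 and H1f5 rose by 1.76 and 1.53 on the log2 scale (adjusted p = 0.0469 and 0.0414), and both calls were lost with Y-linked expression in the model (adjusted p = 0.0793 and 0.064), where the list had 12 rises. These genes are close copies of each other and many lack poly(A) tails, so how reads were shared between them is uncertain. The count was 1 without WT replicate 2, 4 without WT replicate 3 or double knockout replicate 2, 6 without double knockout replicate 1 and 9 without WT replicate 1. It was 8 with the small structured RNA share as a covariate, a share that was higher in every double knockout than in every WT library.

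The DNA repair and checkpoint list held 24 genes, of which 7 rose, Fanci, Chek1, Rad54l, Fanca and Exo1 among them. Its median was 0.74, and 1.52% of all genes rose. Chek1 was at 0.343, 0.237 and 0.165 CPM in WT replicates 1 to 3 and at 1.64, 4.7 and 0.903 CPM in Mcl1Δhep Sting1-/- replicates 1 to 3 (log2 fold change 3.02, SE 0.53, adjusted p = 0.0156). CHK1 restrains the cycle when replication stalls, and its transcript was highest in double knockout replicate 2, as were 18 of the 24. Fanca and Fanci, of the Fanconi pathway of crosslink repair, rose by 3.0 and 2.94 on the log2 scale (adjusted p = 0.0192 and 0.0154). The kinases at the head of the damage response did not pass the test, with Atm at 0.16 and Atr at 0.13 on the log2 scale (adjusted p = 0.821 and 0.881). The 7 calls became 0 without WT replicate 2, 3 without WT replicate 3 or double knockout replicate 2, and 4 without double knockout replicate 1.

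Targets of p53 split into a few that rose and many that did not pass the test. Of 19 tested, 3 rose (Cdkn1a, Eda2r and Gdf15), beside 1.52% of all genes, and the list median was 0.28. Eda2r was at 1.27, 0.949 and 0.859 CPM in WT replicates 1 to 3 and at 4.98, 5.19 and 3.56 CPM in Mcl1Δhep Sting1-/- replicates 1 to 3 (log2 fold change 2.10, SE 0.25, adjusted p = 0.00587), and the call was kept without any 1 of the 6 livers. Cdkn1a was at 0.475, 0.356 and 0.495 CPM in WT replicates 1 to 3 and at 5.61, 2.49 and 1.7 CPM in Mcl1Δhep Sting1-/- replicates 1 to 3 (log2 fold change 2.73, SE 0.60, adjusted p = 0.0384). Eda2r encodes a receptor of the TNF receptor family and Cdkn1a the CDK inhibitor p21, and neither overlapped between the groups. Gdf15, a secreted stress factor, rose by 1.90 (adjusted p = 0.0325). Mdm2, which feeds back on p53, was at 19.2 to 22.9 CPM in WT and 23.4 to 27.2 CPM in double knockout livers (log2 fold change 0.27, adjusted p = 0.373). Leaving out any WT liver or double knockout replicate 1 or 2 left 1 call, and leaving out double knockout replicate 3 gave 6.

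Among 18 genes that govern G1, 2 rose, the CDK inhibitors Cdkn1a and Cdkn2c, beside 1.52% of all genes. Cdkn2c was at 7.47, 5.43 and 4.13 CPM in WT and 14.3, 16.8 and 11.7 CPM in double knockout livers (log2 fold change 1.32, SE 0.23, adjusted p = 0.0156). Cyclin D1 (Ccnd1) was at 184, 46.6 and 43.3 CPM in the WT livers, and in double knockout replicates 1 to 3 it was at 188, 418 and 515 CPM (log2 fold change 2.03, SE 0.52, adjusted p = 0.0812). WT replicate 1 and double knockout replicate 1 were at the same level, and in a fit with Y-linked expression as a covariate the adjusted p of Ccnd1 was 0.00408. Within the livers without Y-linked expression Ccnd1 was 184 CPM in WT and 418 and 515 CPM in double knockout, and within those with it 46.6 and 43.3 CPM in WT and 188 CPM in double knockout. Ccnd1 was at 366 ± 37 CPM (SD, n = 3) in Mcl1Δhep and 238 ± 56.1 CPM in Sting1-/- livers. Between double knockout and Sting1-/- livers it did not pass the edgeR test (log2 fold change 0.65, SE 0.51, adjusted p = 0.724). The 2 calls of the list became 0 without double knockout replicate 1, double knockout replicate 2, WT replicate 2 or WT replicate 3.

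**Figure D2:**
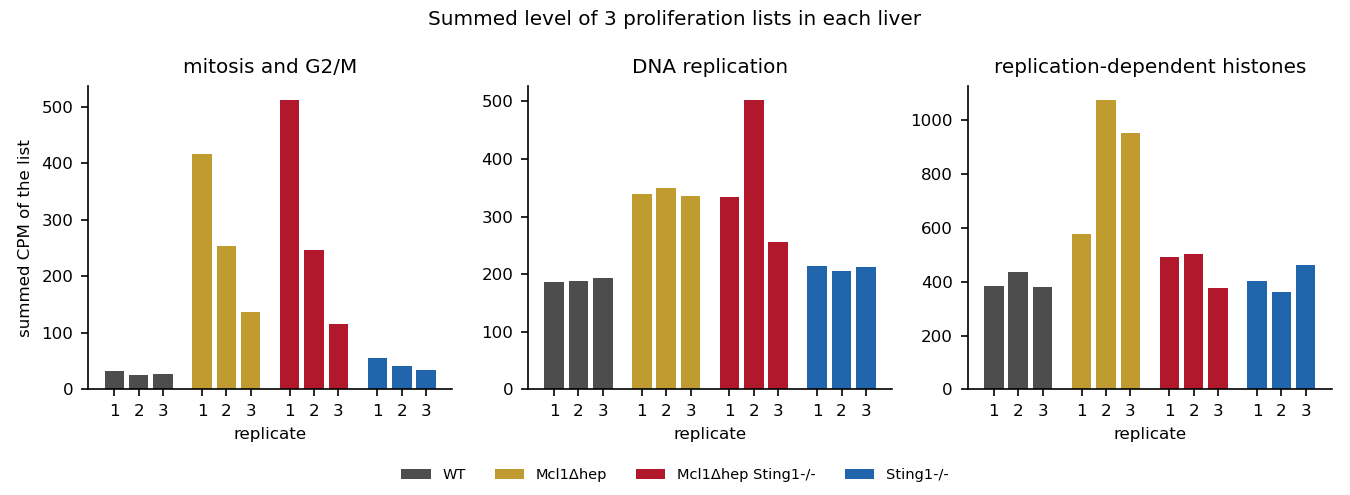
Bars give the summed CPM of the mitosis, DNA replication and histone lists in each of the 12 livers, by genotype and replicate. The Mcl1Δhep Sting1-/- livers run 511, 246 and 116 CPM for mitosis and 333, 502 and 256 CPM for replication in replicates 1 to 3, so that the highest liver is replicate 1 in the first panel and replicate 2 in the second.

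The difference between the 3 double knockout livers ran through the rises as a whole. Of the 229 genes that rose, 134 were highest in replicate 1, 82 in replicate 2 and 13 in replicate 3, and 197 were lowest in replicate 3. The 46 falls showed no such order, with 16, 18 and 12 of them lowest in replicates 1, 2 and 3. Mcl1 was least reduced in replicate 3, the liver with the lowest mitosis sum. Among Mcl1Δhep livers, replicate 3 had the lowest mitosis sum (137 CPM) and also the lowest Mcl1 (25 CPM). A relation between the level of Mcl1 and the mitosis sum was not tested.

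The remaining genes of the cell death machinery did not pass the test. Bcl2l1, which encodes the related survival protein BCL-XL, was at 28.5 to 31.3 CPM in WT and 26.9 to 38.4 CPM in double knockout livers (log2 fold change 0.17, adjusted p = 0.751). The effectors Bax and Bak1 stood at 0.39 and −0.08 on the log2 scale (adjusted p = 0.557 and 0.875), and the BH3-only genes Bcl2l11 and Bbc3 at 0.0 and 0.16 (adjusted p = 0.998 and 0.913). The 7 tested BH3-only genes, whose products set off the pore formers, summed to 53.1, 55.8 and 54 CPM in WT and 34.4, 45.1 and 30.7 CPM in double knockout livers, which do not overlap, and 3 of them (Bid, Bmf and Bik) lay entirely below WT, beside 11.3% of all genes. Bmf was at 20.9, 19.5 and 19.4 CPM in WT and 5.61, 12.1 and 4.71 CPM in double knockout livers (log2 fold change −1.41, SE 0.56, adjusted p = 0.268). DESeq2, which called 173 genes lower in all where edgeR called 46, called 1 of the 7 lower. Of 16 death receptor and caspase genes none passed, and the one furthest from 0 was Tnfrsf10b, the TRAIL receptor of the mouse, at 0.211, 0 and 0.231 CPM in WT and 1.2, 1.29 and 0.711 CPM in double knockout livers (log2 fold change 2.47, adjusted p = 0.05, just over the threshold).

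Some genes of lipid-associated macrophages rose. Of 14 genes that mark these cells, 4 rose (Gpnmb, Trem2, Mmp12 and Lpl), the list median was 0.92 and 10 had double knockout livers entirely above WT, beside 1.52% called higher and 11.5% entirely higher of all genes. Gpnmb was at 0.554, 0.237 and 1.32 CPM in WT replicates 1 to 3 and at 12.9, 7.16 and 3.56 CPM in Mcl1Δhep Sting1-/- replicates 1 to 3 (log2 fold change 3.40, SE 0.61, adjusted p = 0.0173). Trem2 was at 0.765, 0.712 and 0.793 CPM in WT replicates 1 to 3 and at 5.51, 4.78 and 1.56 CPM in Mcl1Δhep Sting1-/- replicates 1 to 3 (log2 fold change 2.30, SE 0.46, adjusted p = 0.026). Gpnmb, a membrane glycoprotein, and Trem2, a lipid-sensing receptor of phagocytes, were lowest in replicate 3 among double knockout livers but did not overlap with WT. Mmp12 was at 0.607, 0.326 and 3.04 CPM in WT replicates 1 to 3 and at 22.9, 19.7 and 4.84 CPM in Mcl1Δhep Sting1-/- replicates 1 to 3 (log2 fold change 3.55, SE 0.77, adjusted p = 0.0362), and it encodes macrophage elastase. Lpl, lipoprotein lipase, rose by 2.13 (adjusted p = 0.0485), and adipocytes also express it. The summed adipocyte list differed between libraries, with sums of 5.36, 24.1 and 5.68 CPM in WT and 46, 30.5 and 6.46 CPM in double knockout livers. The part of fat tissue in the level of Lpl was not tested. Other genes of the list did not pass, with Cd9 at 0.96 and Fabp5 at 0.07 (adjusted p = 0.212 and 0.972). The 4 calls became 0 without double knockout replicate 1 or WT replicate 2, 1 without double knockout replicate 2 or WT replicate 1, and 2 without WT replicate 3.

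None of 15 general macrophage genes passed the test. Of them, 12 had double knockout livers entirely above WT, beside 11.5% of all genes, and the list median was 0.56. Their sum was 599.7, 518 and 739 CPM in WT and 791, 856 and 905 CPM in double knockout livers, which do not overlap. Adgre1, the gene of F4/80, was at 41.2, 32.3 and 45.8 CPM in WT and 62.4, 64.6 and 65.3 CPM in double knockout livers (log2 fold change 0.69, SE 0.20, adjusted p = 0.118). Cd68 was at 10.5, 7.5 and 15.6 CPM and 19.3, 19.7 and 18.7 CPM (log2 fold change 0.78, SE 0.22, adjusted p = 0.116). In Sting1-/- livers Adgre1 was at 55.3 ± 15.3 CPM and Cd68 at 10.9 ± 1.27 CPM (SD, n = 3). DESeq2, which called 682 genes in all where edgeR called 275, called 4 of the 15. Kupffer cell genes, the resident macrophages of liver, summed to 735, 694 and 973 CPM in WT and 946, 1063 and 1138 CPM in double knockout livers, which overlap, with none of 12 called and a median of 0.30. Clec4f and Vsig4 stood at 0.41 and 0.58 on the log2 scale (adjusted p = 0.355 and 0.186).

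Lists of other leukocytes had no called gene. Medians were 0.56 for recruited monocytes, 0.80 for neutrophils, 0.44 for T and NK cells and 0.28 for B and plasma cells. Neutrophil genes were scarce, with S100a8 at 0.791 to 1.19 CPM in WT and 1.2 to 1.61 CPM in double knockout livers, and Cd3d was at 0.237 to 0.561 and 0.493 to 0.755 CPM. Among 23 chemokine ligands the median was 0.34, and Ccl2, which draws monocytes, was at 0.791, 0.119 and 0.991 CPM in WT and 2.0, 2.0 and 1.42 CPM in double knockout livers (log2 fold change 1.44, SE 0.47, adjusted p = 0.171). Its receptor Ccr2 was at 3.14, 1.48 and 2.08 CPM and 4.51, 5.48 and 3.58 CPM (log2 fold change 1.0, SE 0.36, adjusted p = 0.221). Neither gene overlapped between the groups, as 22.8% of all genes did not, and neither passed the test. MHC class II genes had a median of 0.59, with H2-Aa at 0.61 and H2-Ab1 at 0.65 (adjusted p = 0.43 and 0.442).

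Interferon response genes, a readout of the pathway in which STING1 acts, had no called gene among 30. Their sum was 1074, 929 and 1815 CPM in the WT livers and 1171, 1154 and 934 CPM in double knockout livers, so WT replicate 3 stood above the other 5. The list median was −0.25, and it was 0.25 without WT replicate 3, so its direction rested on that liver. Isg15 was at 6.36, 4.09 and 21.7 CPM in WT and 8.15, 7.77 and 5.06 CPM in double knockout livers (log2 fold change −0.61, SE 0.48, adjusted p = 0.636). Ifit1 was at 16.5, 9.22 and 38.8 CPM and 10.3, 14.2 and 9.22 CPM (log2 fold change −0.93, SE 0.40, adjusted p = 0.307). For both genes WT replicate 3 was the highest liver and the other livers overlapped. The 18 tested genes of the DNA sensing pathway had a median of 0.03 and no call.

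Matrix genes gave few calls. All 25 had a positive log2 fold change with a median of 0.57, and 7 had double knockout livers entirely above WT (beside 11.5% of all genes). Of the 25, 2 rose (beside 1.52%), the matrix metalloproteinases Mmp12 and Mmp13. The summed list was at 886, 572 and 564 CPM in WT and 1330.1, 915 and 906 CPM in double knockout livers, which do not overlap. Mmp13, a collagenase, was at 0.264, 0.237 and 0.726 CPM in WT and 4.54, 2.88 and 1.18 CPM in double knockout livers (log2 fold change 2.67, SE 0.55, adjusted p = 0.0285). Col1a1, the main fibrillar collagen of scars, was at 24.1, 11.7 and 9.01 CPM and 56, 23.7 and 22.8 CPM (log2 fold change 1.19, SE 0.42, adjusted p = 0.209). Col1a1 overlapped between the groups, since WT replicate 1 lay above double knockout replicates 2 and 3. All 25 genes were highest in double knockout replicate 1 among the double knockout livers, the one with Y-linked expression and with the highest adipocyte sum (46 CPM). Among livers without Y-linked expression, the double knockout mean over the WT level was 0.966 for Col1a1 and 0.875 for Col1a2, and among those with it the ratio was 5.41 and 3.67. Stellate cell genes had a median of 0.43 with none of 15 called, and the activation marker Acta2 was at 3.22, 2.43 and 1.39 CPM in WT and 8.52, 2.63 and 2.98 CPM in double knockout livers (log2 fold change 0.97, SE 0.49, adjusted p = 0.407). Both matrix calls were lost without double knockout replicate 1, double knockout replicate 2 or WT replicate 2.

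**Figure D3:**
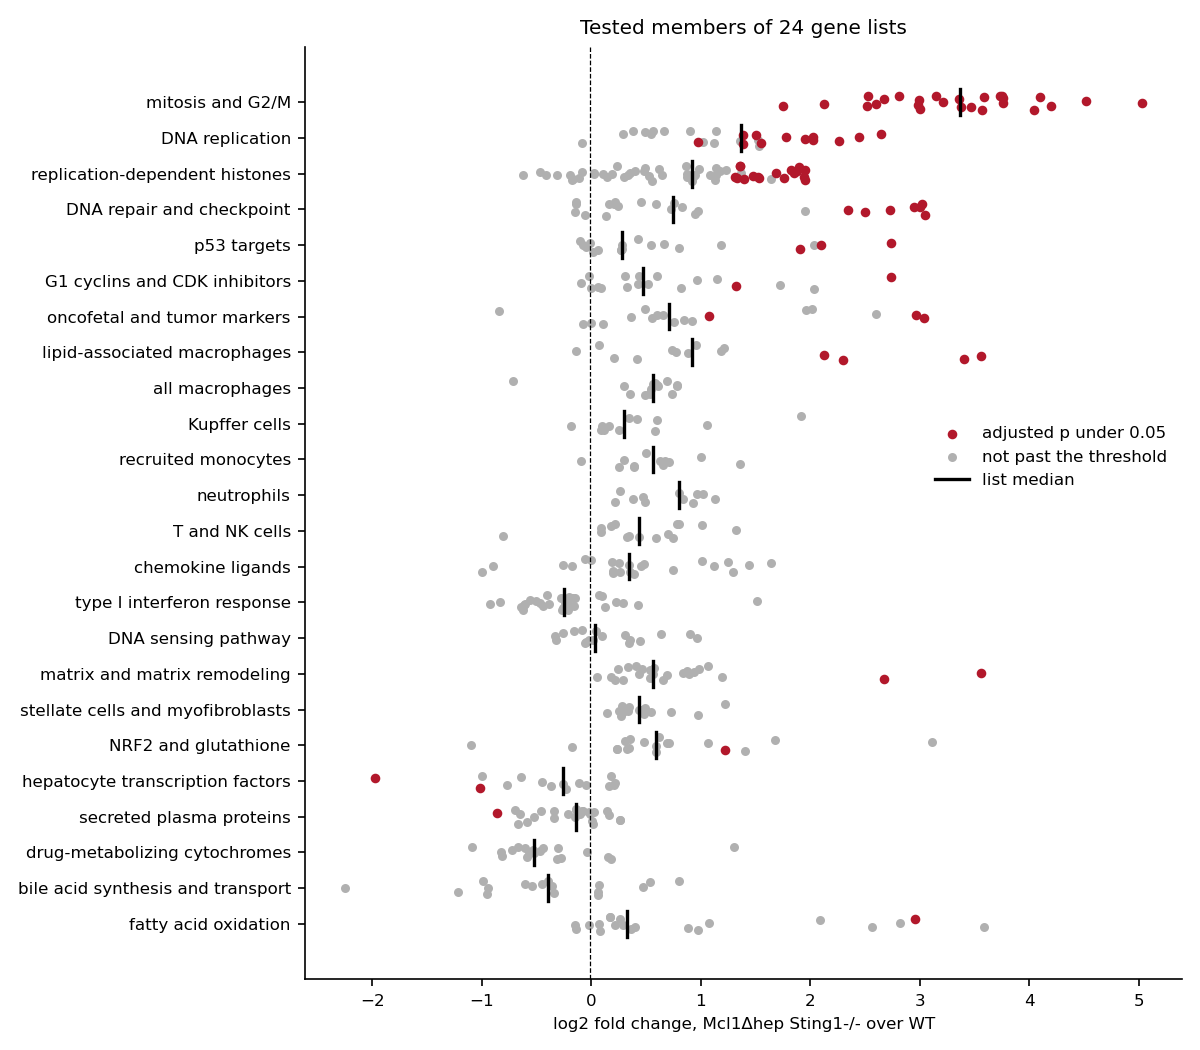
Each point is the log2 fold change of Mcl1Δhep Sting1-/- over WT for 1 tested gene of a list, red where the adjusted p was under 0.05. The list median is a black bar, and the median of all tested genes (−0.01) is dashed. All 26 mitosis genes are red and lie between 1.75 and 5.03, while the macrophage, leukocyte and interferon lists other than lipid-associated macrophages hold no red point.

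Some rises belonged to no proliferation list. Gldn was at 0.396, 0.208 and 0.231 CPM in WT replicates 1 to 3 and at 11.9, 9.28 and 4.68 CPM in Mcl1Δhep Sting1-/- replicates 1 to 3 (log2 fold change 4.68, SE 0.48, adjusted p = 0.00236). Pdk4 was at 2.37, 1.28 and 1.55 CPM in WT replicates 1 to 3 and at 10.1, 12.2 and 19.2 CPM in Mcl1Δhep Sting1-/- replicates 1 to 3 (log2 fold change 2.95, SE 0.36, adjusted p = 0.00587). Gldn encodes gliomedin, an adhesion protein known from peripheral nerve, and Pdk4 the kinase that shuts off pyruvate dehydrogenase in fasting, and both calls were kept without any 1 of the 6 livers. Pdk4 was highest in double knockout replicate 3, the liver with the lowest mitosis sum. It was the one call among 20 fatty acid oxidation genes (1.52% of all genes rose), whose median was 0.33, and Cpt1a was at 0.07 (adjusted p = 0.956).

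Further rises were chosen after their values were seen, since their calls were kept without any 1 of the 6 livers. Slc1a4 was at 4.75, 5.16 and 3.9 CPM in WT replicates 1 to 3 and at 26.1, 21.3 and 25 CPM in Mcl1Δhep Sting1-/- replicates 1 to 3 (log2 fold change 2.37, SE 0.33, adjusted p = 0.00713). Akr1c18 was at 0.185, 0.208 and 0.033 CPM in WT replicates 1 to 3 and at 1.37, 2.78 and 4.32 CPM in Mcl1Δhep Sting1-/- replicates 1 to 3 (log2 fold change 3.85, SE 0.54, adjusted p = 0.00713). Slc1a4 encodes a carrier of neutral amino acids and Akr1c18 a steroid dehydrogenase, and Akr1c18 was highest in double knockout replicate 3.

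Stress genes gave single calls, where 1.52% of all genes rose. Hmox1 was at 20.8, 13.9 and 24.8 CPM in WT replicates 1 to 3 and at 53.4, 40.2 and 44.8 CPM in Mcl1Δhep Sting1-/- replicates 1 to 3 (log2 fold change 1.22, SE 0.22, adjusted p = 0.017), and it encodes heme oxygenase. Atf3 was at 2.37, 0.949 and 2.28 CPM in WT replicates 1 to 3 and at 12.1, 8.87 and 4.05 CPM in Mcl1Δhep Sting1-/- replicates 1 to 3 (log2 fold change 2.12, SE 0.42, adjusted p = 0.026). Atf3 encodes a transcription factor induced by many stresses, and neither gene overlapped between the groups. Hmox1 was the one call among 19 NRF2 and glutathione genes (median 0.59), where Nqo1 was at 13.9, 5.37 and 7.03 CPM in WT and 16.5, 31.8 and 21.5 CPM in double knockout livers (log2 fold change 1.40, SE 0.33, adjusted p = 0.054). With Y-linked expression as a covariate the list had 3 calls, Nqo1 among them (adjusted p = 0.0183). Nqo1 was at 17 ± 2.34 CPM (SD, n = 3) in Sting1-/- livers. Between double knockout and Sting1-/- livers it did not pass the edgeR test (log2 fold change 0.45, SE 0.32, adjusted p = 0.683). Atf3 was the one call among 18 integrated and ER stress genes (median 0.02), with Atf4 at 0.14 and Ddit3 at 0.73 (adjusted p = 0.819 and 0.227).

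Of 18 oncofetal and tumor marker genes, 3 rose (Igf2bp3, Golm1 and Ly6d), beside 1.52% of all genes, and the median was 0.70. Igf2bp3 was at 0.211, 0.564 and 0.363 CPM in WT replicates 1 to 3 and at 6.05, 1.9 and 2.6 CPM in Mcl1Δhep Sting1-/- replicates 1 to 3 (log2 fold change 3.04, SE 0.56, adjusted p = 0.0192), and it encodes a fetal RNA-binding protein. Ly6d was at 0.633, 1.04 and 1.12 CPM in WT replicates 1 to 3 and at 7.55, 8.41 and 6.87 CPM in Mcl1Δhep Sting1-/- replicates 1 to 3 (log2 fold change 2.97, SE 0.59, adjusted p = 0.0251). Golm1, the Golgi protein GP73, rose by 1.07 (adjusted p = 0.021). The fetal genes Afp and H19 did not pass, with Afp at 1.11 to 1.75 CPM in WT and 1.7 to 3.11 CPM in double knockout livers and H19 at 0.066 to 1.5 and 0.969 to 6.1 CPM (adjusted p = 0.433 and 0.325). The 3 calls became 0 without double knockout replicate 1, WT replicate 2 or WT replicate 3 and 1 without double knockout replicate 2 or WT replicate 1.

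The 46 falls were scattered. Of them, 4 were in one of the lists and 42 in none, and 30 were at least 2-fold. Cnmd was at 6.89, 3.05 and 4.62 CPM in WT replicates 1 to 3 and at 0.234, 0.244 and 0.383 CPM in Mcl1Δhep Sting1-/- replicates 1 to 3 (log2 fold change −3.84, SE 0.39, adjusted p = 0.00236). P2ry2 was at 16, 20.9 and 18.2 CPM in WT replicates 1 to 3 and at 8.32, 9.89 and 8.65 CPM in Mcl1Δhep Sting1-/- replicates 1 to 3 (log2 fold change −1.03, SE 0.14, adjusted p = 0.00713). Cnmd encodes chondromodulin, a secreted inhibitor of vessel growth, and P2ry2 a receptor for extracellular nucleotides, and both calls were kept without any 1 of the 6 livers. P2ry2 was chosen after its values were seen. Dct was at 9.95, 6.88 and 13.1 CPM in WT replicates 1 to 3 and at 1.0, 1.49 and 2.46 CPM in Mcl1Δhep Sting1-/- replicates 1 to 3 (log2 fold change −2.55, SE 0.44, adjusted p = 0.0156). Dct, an enzyme of melanin synthesis, was at 11.1 ± 2.96 CPM (SD, n = 3) in Sting1-/- livers. Slc2a5, the fructose carrier, fell by 2.11 on the log2 scale (adjusted p = 0.0273), Gpcpd1, an enzyme of phosphocholine turnover, by 1.82 (adjusted p = 0.0341), and Syt3, a synaptotagmin, by 1.71 (adjusted p = 0.0192). Gpcpd1 lost its call whichever of the 6 livers was left out, and with Y-linked expression as a covariate Slc2a5 and Gpcpd1 both did (adjusted p = 0.0542 and 0.052). Mup16 was at 26.3, 541 and 55.3 CPM in WT replicates 1 to 3 and at 3.37, 2.02 and 10.3 CPM in Mcl1Δhep Sting1-/- replicates 1 to 3 (log2 fold change −5.29, SE 1.12, adjusted p = 0.0337). Mup16 belongs to a family of near-identical major urinary protein genes that are male-biased in liver, its WT level rested on replicate 2, and reads may be shared with other members. Its call was lost with Y-linked expression as a covariate (log2 fold change −4.19, adjusted p = 0.185).

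Hepatocyte identity genes gave few calls. Of 15 hepatocyte transcription factors, 2 fell (Foxa2 and Onecut1), where 0.305% of all genes fell. The list median was −0.26, and 7 of the 15 had double knockout livers entirely below WT, beside 11.3% of all genes. Foxa2 was at 38.9, 39.9 and 31.5 CPM in WT replicates 1 to 3 and at 16.8, 22.2 and 15.5 CPM in Mcl1Δhep Sting1-/- replicates 1 to 3 (log2 fold change −1.01, SE 0.19, adjusted p = 0.0206). Onecut1 was at 65.6, 75.4 and 59.2 CPM in WT replicates 1 to 3 and at 25.4, 11.5 and 13.8 CPM in Mcl1Δhep Sting1-/- replicates 1 to 3 (log2 fold change −1.98, SE 0.41, adjusted p = 0.0305). Foxa2 is a pioneer factor of liver and Onecut1 a factor of early hepatic and biliary fate. Onecut1 overlaps the predicted gene Gm20649 on the same strand, so its count is uncertain. Hnf4a was at 662, 722 and 659 CPM in WT and 635, 521 and 823 CPM in double knockout livers (log2 fold change −0.05, SE 0.18, adjusted p = 0.95). Both calls were lost without double knockout replicate 3, WT replicate 1 or WT replicate 2 and with the small structured RNA share as a covariate, and 1 was left without double knockout replicate 1, double knockout replicate 2 or WT replicate 3. Of 25 secreted plasma proteins Serpina1c alone fell, from 2958, 4109 and 4022 CPM in WT to 2333, 1598 and 2152 CPM in double knockout livers (log2 fold change −0.87, SE 0.19, adjusted p = 0.0375), and it shares sequence with its close copies. That call was lost with Y-linked expression as a covariate (log2 fold change −0.73, adjusted p = 0.0611).

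Metabolic lists had no called gene, apart from Pdk4. The median was −0.52 for drug-metabolizing cytochromes, −0.40 for bile acid synthesis and transport, 0.10 for sterol synthesis and lipogenesis, 0.07 for pericentral genes and 0.01 for urea cycle and periportal genes. Of 19 cytochromes 7 lay entirely below WT and 1 entirely above, and of 17 bile acid genes 4 and 1, beside 11.3% and 11.5% of all genes. Summed cytochromes were at 18918 to 21958 CPM in WT and 11914 to 16775 CPM in double knockout livers, which do not overlap. Summed bile acid genes, at 8314 to 8790 and 5341 to 7760 CPM, did not overlap either. Cyp2e1 was at 6899, 6719 and 7434 CPM in WT and 2765, 3968 and 6516 CPM in double knockout livers (log2 fold change −0.67, SE 0.40, adjusted p = 0.493), and Cyp1a2 at 879, 733 and 777 and 376, 527 and 443 CPM (log2 fold change −0.83, SE 0.40, adjusted p = 0.382). Both oxidize drugs, and in both every double knockout liver lay below every WT liver, without passing the test. Cyp7a1, the rate-limiting enzyme of bile acid synthesis, was at 164 to 498 CPM in WT and 78 to 325 CPM in double knockout livers (log2 fold change −0.61, adjusted p = 0.746). Cps1 and Ass1, of the urea cycle, stood at −0.34 and 0.01 on the log2 scale (adjusted p = 0.666 and 0.993). Biliary genes had a median of −0.12 and YAP targets one of −0.09, with no call in either, and Krt19 was at 1.25 to 1.85 CPM in WT and 1.24 to 1.26 CPM in double knockout livers.

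Sex-biased genes differed between livers of the same genotype. Cyp2d9, a male-biased cytochrome, was at 55.6, 1758 and 1826 CPM in WT and 781, 44.6 and 46 CPM in double knockout replicates 1 to 3. Cyp2b9, a female-biased one, was at 671, 0.0593 and 0.132 CPM and 0.535, 383 and 337 CPM. The livers with Y-linked expression, WT replicates 2 and 3 and double knockout replicate 1, were the high ones for the first gene and the low ones for the second. A fit that included Y-linked expression called 269 genes, 225 of them among the 275.

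**Figure D4:**
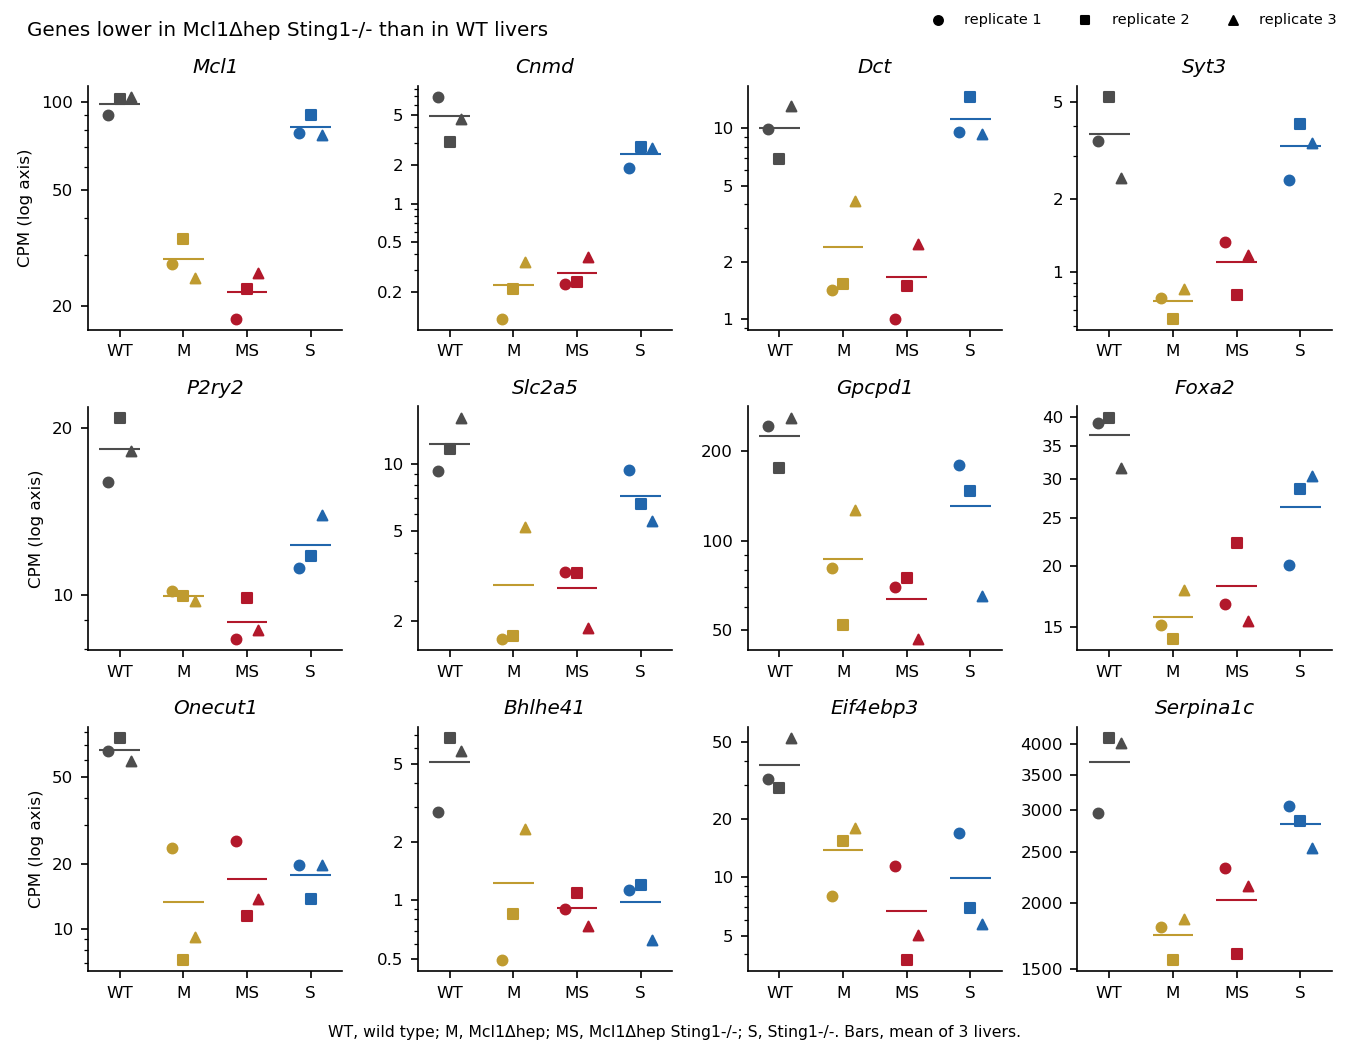
Each panel plots the CPM of 1 gene on a log axis in the 3 livers of WT, Mcl1Δhep (M), Mcl1Δhep Sting1-/- (MS) and Sting1-/- (S) mice, with replicates as circles, squares and triangles and the mean as a bar. The 3 Mcl1Δhep Sting1-/- livers lie below the 3 WT livers in every panel, and for Onecut1, Bhlhe41 and Eif4ebp3 the Sting1-/- mean of 17.7, 0.985 and 9.88 CPM and the Mcl1Δhep mean of 13.3, 1.22 and 13.8 CPM are also low.

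The means of the remaining genotypes were set beside these differences from WT. Neither Mcl1Δhep nor Sting1-/- livers were tested against WT. On a log2(CPM + 0.1) scale, the Mcl1Δhep mean was nearer to the double knockout than to the WT mean for 227 of the 229 rises and 44 of the 46 falls, whereas the Sting1-/- mean was nearer for 16 rises and 14 falls. These genes were chosen for a difference between double knockout and WT livers. The share of all tested genes with a nearer mean was not counted, so the counts cannot be weighed against it. Cdc20 was at 21.7 ± 9.93 CPM (SD, n = 3) in Mcl1Δhep and 2.01 ± 0.893 CPM in Sting1-/- livers. Gldn was at 13.8 ± 4.46 CPM and 0.428 ± 0.259 CPM, and Pdk4 at 11.9 ± 4.42 CPM and 3.47 ± 0.955 CPM. In these 3 genes the Mcl1Δhep livers and the double knockout livers were both above the Sting1-/- livers.

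For some falls the livers of all 3 other genotypes were low and the WT livers alone were high. Onecut1 was at 13.3 ± 8.94 CPM (SD, n = 3) in Mcl1Δhep and 17.7 ± 3.47 CPM in Sting1-/- livers. Bhlhe41, a transcriptional repressor of the circadian clock, was at 1.22 ± 0.959 and 0.985 ± 0.312 CPM in them, and Eif4ebp3, a repressor of translation initiation, at 13.8 ± 5.14 and 9.88 ± 6.11 CPM. Bhlhe41 was at 2.82, 6.76 and 5.78 CPM in WT and 0.902, 1.1 and 0.739 CPM in double knockout livers (log2 fold change −2.42, SE 0.51, adjusted p = 0.0317), and its call was lost with Y-linked expression in the model (adjusted p = 0.0832). Eif4ebp3 was at 32.2, 29 and 52.5 CPM in WT and 11.4, 3.75 and 5.06 CPM in double knockout livers (log2 fold change −2.49, SE 0.50, adjusted p = 0.0273). Eif4ebp3 lies at chr18:36797113-36801356 (GRCm39), on the chromosome of Sting1 at chr18:35866732-35873607, and overlaps Maskbp3 on the same strand, so that reads of the pair cannot be told apart. Maskbp3, chosen after its values were seen, was at 35.2 to 54.4 CPM in WT, 10.4 to 17.7 CPM in double knockout, 18.1 ± 2.49 CPM (SD, n = 3) in Mcl1Δhep and 16.7 ± 5.58 CPM in Sting1-/- livers. Both genes were thus below WT also in the Mcl1Δhep livers, which carry no Sting1 loss by label.

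Against the Sting1-/- livers, from which the same double knockout livers differ only in Mcl1 by label, 121 genes were called (102 higher and 19 lower, 0.803% of those tested). The mitosis list had 15 of 26 genes higher with a median of 2.76, DNA replication 8 of 26 with 1.06, histones 2 of 58 with 0.73, and DNA repair 0 of 24 with 0.67. This comparison shares its double knockout livers with the one against WT and is no separate support for it. It rested on single livers, with 1 to 3 calls without any 1 Sting1-/- liver and 2 without double knockout replicate 1 or 2, but 249 without replicate 3. It was 65 without Mcl1Δhep replicate 2, 52 without WT replicate 2, 59 without WT replicate 3 and 45 with Y-linked expression as a covariate.

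Mcl1Δhep and Sting1-/- livers were compared as well, a contrast with no library of the double knockout and WT contrast. Both contrasts came from 1 fit of all 12 libraries with a shared estimate of the spread, so their calls are not independent. Between Mcl1Δhep and Sting1-/- livers 2317 genes were called (15.4% of those tested), 1337 higher and 980 lower in Mcl1Δhep. Of the 275 genes of the double knockout comparison, 234 (85.1%) were among them, 232 in the same direction. The 234 genes are 10.1% of the 2317. The same sign was found for 269 of the 275 genes and for 65.4% of all tested genes. By direction, 205 of the 229 rises and 27 of the 46 falls were called there with the same sign. Mcl1Δhep replicate 3 stood apart, with pancreas genes at 9677 CPM and skeletal muscle genes at 1761 CPM, against at most 12.1 and 1.53 CPM in its group. The 2317 calls became 4616 without Mcl1Δhep replicate 1, 783 without Mcl1Δhep replicate 2, and 821, 647 and 993 without Sting1-/- replicates 1, 2 and 3.

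Double knockout and Mcl1Δhep livers were also set against each other. No gene passed edgeR's test, with 3098 at an unadjusted p under 0.05 and a lowest adjusted p of 0.131, while DESeq2 called 671 genes, 337 higher and 334 lower, and edgeR called 3108 without Mcl1Δhep replicate 1. DESeq2 called 26 of the 275 genes in it. All Mcl1Δhep livers lay above all double knockout livers for 50 of the 229 rises and below them for 3. The share of all tested genes with either order was not counted, so the 50 cannot be weighed against it. Ly6d was at 83.1 ± 81.9 CPM (SD, n = 3) in Mcl1Δhep livers, Mmp12 at 81.9 ± 50.8 CPM and Gpnmb at 25.6 ± 12.6 CPM, where the double knockout livers held 7.61 ± 0.771, 15.8 ± 9.63 and 7.86 ± 4.69 CPM. For the mitosis list the 3 Mcl1Δhep sums were 415, 253 and 137 CPM and the median log2 difference was −0.02.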

How the data were processed

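Total RNA of 12 mouse liver samples was sequenced, 3 for each of 4 genotypes, and replicates are samples the labels list separately. The labels name no animals. The study's supplement calls the replicates of its expression plots of WT, Mcl1Δhep and double knockout livers biological, and p-values measure the spread between these samples. The deposited values are counts of reads per gene (40551 Ensembl genes) that the authors made with STAR and featureCounts on GRCm39, versions, annotation release and strand setting not given in the sources used here. RNA was extracted with a column kit, which the labels and the methods name differently.

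The counts were analysed with edgeR 4.0.16 (R 4.3.3). Genes were filtered with filterByExpr, library sizes scaled by TMM, and 1 quasi-likelihood fit of all 12 libraries tested with Benjamini-Hochberg adjustment over 15070 genes and a threshold of 0.05. CPM values use the TMM-scaled library sizes, except the Y-linked sums, which use total counts. Fold changes use a prior count of 2. Replicate pairs of every group differed beyond sampling noise. Genes without annotation took at most 0.101% of counts.

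Named genes were Mcl1, Sting1 and Cgas, the 12 largest rises and falls among called protein-coding genes with at least 1 CPM and no overlap, and for each of 46 lists the first 2 members and up to 3 called ones. Some genes that this rule names are not reported here. The genes compared, lists and rules were chosen with earlier results of these data known. Alternatives were DESeq2 1.42.0, RLE scaling, no filter, the 6 libraries alone, covariates, the replicate number as a block and leaving out 1 library at a time. The version 4 fit and within-sex values were added after seeing the data. Promoters are those of RefSeq on GRCm38.p6, matched by symbol.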

Additional observations from a re-analysis of the deposited data

How the results depend on the processing

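The main count of 275 genes between double knockout and WT livers was 280 with RLE size factors, 297 without a filter, 309 with the version 4 fit, 269 with Y-linked expression and 225 with the small structured RNA share as a covariate, 682 with DESeq2 (509 higher, 173 lower, 274 of the 275 among them) and 13 in the fit of 6 libraries alone (11 of the 275). Leaving out 1 library in turn gave 31 to 376 genes. The 121 genes between double knockout and Sting1-/- livers became 474 with DESeq2, 17 with the 6 libraries alone, 45 with Y-linked expression as a covariate and 1 to 249 without 1 library. The 0 genes between double knockout and Mcl1Δhep livers became 671 with DESeq2, 1 with Y-linked expression as a covariate and 0 to 3108 without 1 library. The 2317 genes between Mcl1Δhep and Sting1-/- livers became 1537 with the 6 libraries alone and 647 to 4616 without 1 library. The cause of these changes was not tested. Over all lists and alternatives, 893 of 920 list medians moved by less than the spread between samples of a group. Many of these alternatives drop 1 library. Such a step moves a group mean by less than that group's own spread, or leaves the compared groups whole. Much of the count was therefore nearly fixed beforehand, and it cannot show that the medians are stable.

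Whether the replicate numbers pair the double knockout and WT livers could not be decided. In each same-numbered pair 1 liver had Y-linked expression and the other had none, which the correlations do not separate from pairing. Deviations of same-numbered livers of these groups correlated at −0.54, −0.34 and −0.13 across genes, and with the replicate number as a block 242 genes were called, 222 of them among the 275. Same-numbered double knockout and Sting1-/- livers correlated at 0.07, 0.25 and 0.18, each best with its own number, which is a hint from the data and not from the labels, and with the block 129 genes were called between them, in place of 121.

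Y-linked expression was seen in 1 double knockout and 2 WT livers, so a comparison within livers of 1 kind has 1 liver on one side and no test.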
